A study of Mus musculus with 8 samples.

Results

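5-azadC (5-aza-2'-deoxycytidine, decitabine) is a deoxycytidine analog that was given to mice carrying mammary tumors, and DNA methylation was measured in the tumors by reduced representation bisulfite sequencing (RRBS). All 4 libraries whose treatment included 5-azadC, from the groups 5-azadC and C29+5-azadC, were set against the 4 libraries without it, from the groups DMSO and C29. These are all 8 libraries of the series, 2 in each of 4 groups, and they were chosen by treatment alone. In all groups the tumors were grafts of NIC-5231, a mouse breast cancer cell line, placed in a mammary fat pad of 5 to 7 week old mice of NSG, a strain without a working adaptive immune system. Injections into the peritoneum every 2 days gave 5-azadC at 1 mg/kg in the 5-azadC group, C29, an inhibitor of the nuclear receptor ERRα, at 10 mg/kg in the C29 group, both agents at these doses in the C29+5-azadC group, and the DMSO-containing vehicle alone in the DMSO group. Each group had 5 mice, and each library was a pool of tumor DNA from 2 of them, so p-values compare pools and not single animals. Host cells in the graft are also murine, and their DNA cannot be told apart from that of the tumor cells.

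Most CpG methylation in mammals is copied onto the new strand after replication by DNMT1, the maintenance methyltransferase. 5-azadC is built into DNA in place of cytosine and traps the methyltransferases covalently, so that methylation is diluted as cells divide. CpG islands at gene promoters are mostly unmethylated, whereas gene bodies, repeats and intergenic DNA are mostly methylated. RRBS reads the ends of fragments cut at CCGG sites and so covers CpG-dense DNA preferentially.

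In all, 555155 cytosines of autosomal CpGs had 10 or more reads in all 8 libraries, and 470737 of them fell into 52186 tiles, which are windows of 1000 bp with 3 or more such cytosines. The libraries held 51359825 to 81299065 reads over cytosines, with a median of 21 to 30 reads per cytosine. Between 0.216% and 0.329% of cytosines of the unmethylated control DNA, and 97.5% to 98.3% of those of the methylated control, read as methylated. The promoter tiles of 10 epithelial marker genes had mean levels of 7.7% to 10.3% in every library. Over all cytosines in the 1000 bp upstream of a start site, library means were 9.62% to 11.1%. The epithelial level was thus near that of promoters in general and says little about the tissue. Levels were 40.1% to 59.05% for 4 adipocyte markers, 15.9% to 38.3% for 5 endothelial markers and 13.2% to 33.5% for 4 fibroblast markers. The median difference with 5-azadC was -0.03 points for the epithelial, -5.80 for the adipocyte, -5.14 for the endothelial and 2.70 for the fibroblast markers, against -0.131 over the 12183 coding genes with a promoter tile. Fibroblast markers were lower with 5-azadC in 0 of 4 genes, endothelial in 4 of 5 and adipocyte in 3 of 4. None of the 12 macrophage markers had a tile. No promoter tile of any of these lists separated the libraries with 5-azadC from those without it, and the part of host cells in the results was not tested.

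The sequences below come from tiles of wide separation in which the measured stretch overlapped no untranslated region, and show how few CpGs such a tile rests on. They are taken from GRCm38 (mm10, plus strand, 5′ to 3′). Capitals mark the CpGs measured in all 8 libraries.
Tram2, chr1:21080453-21080509: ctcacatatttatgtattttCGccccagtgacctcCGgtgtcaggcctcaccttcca
Glul, chr1:153903034-153903100: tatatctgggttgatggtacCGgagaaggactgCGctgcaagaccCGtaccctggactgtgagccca
Zbtb7a, chr10:81144786-81145017: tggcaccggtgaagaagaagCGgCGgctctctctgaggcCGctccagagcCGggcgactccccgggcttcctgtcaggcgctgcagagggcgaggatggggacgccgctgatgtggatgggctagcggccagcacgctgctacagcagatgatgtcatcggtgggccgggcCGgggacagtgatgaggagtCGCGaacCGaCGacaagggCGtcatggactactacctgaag
Maml3, chr3:52071913-52071993: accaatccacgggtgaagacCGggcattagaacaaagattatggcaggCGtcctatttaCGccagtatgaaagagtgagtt
Intergenic, chr3:96332119-96332192: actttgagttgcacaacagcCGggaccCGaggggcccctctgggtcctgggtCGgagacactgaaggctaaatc
Lmx1b, chr2:33575535-33575752: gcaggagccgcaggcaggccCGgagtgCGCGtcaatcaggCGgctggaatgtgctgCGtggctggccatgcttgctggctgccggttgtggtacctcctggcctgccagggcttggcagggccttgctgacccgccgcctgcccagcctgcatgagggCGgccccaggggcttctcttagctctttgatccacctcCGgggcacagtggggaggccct
The first 5 stretches lie in tiles where every 5-azadC library was lower. The Lmx1b stretch lies in a tile where every 5-azadC library was higher.

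Mean methylation was lower in every library with 5-azadC than in any library without it. The mean over all cytosines was 34.4% and 34.4% in the DMSO libraries, 34.2% and 33.1% in the C29 libraries, 30.0% and 30.4% in the 5-azadC libraries and 31.1% and 31.1% in the C29+5-azadC libraries. All 4 libraries with 5-azadC lay below all 4 without it, and the lowest library without 5-azadC, the second C29 library, stood 2.01 percentage points above the highest library with it. The means were 30.7% ± 0.528 (SD, n = 4) with and 34.0% ± 0.628 (SD, n = 4) without 5-azadC, a difference of -3.39 points (p = 0.0286 by a two-sided permutation test over all exact arrangements, with no smaller p possible for 4 against 4). The difference was -4.19 points for 5-azadC against DMSO and -2.58 points for C29+5-azadC against C29. Taken as methylated reads over all reads of a library, which gives deeply covered cytosines more weight, the difference was -2.22 points and the groups overlapped (p = 0.2, exact permutation test).

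Highly methylated cytosines were fewer with 5-azadC and intermediate ones more numerous. The share of cytosines at 80% methylation or more was 19.7% ± 1.25 (SD, n = 4) with 5-azadC against 25% ± 0.853 without it. The share between 20% and 80% was 21.3% ± 1.45 against 18% ± 0.642, and that at 20% or less was 58.9% ± 0.399 against 57.1% ± 0.487. The groups did not overlap in any of these shares (p = 0.0286 each by exact permutation tests, adjusted over the 3 shares p = 0.0286).

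Among the 4 positions relative to genes, the decrease in percentage points was larger where the level without 5-azadC was higher. Intergenic cytosines went from 60.9% ± 0.5 without to 54.8% ± 0.954 with 5-azadC (SD, n = 4), a difference of -6.08 points. Intronic cytosines differed by -5.19 points, from 45.8% to 40.6%, and exonic ones by -3.13 points, from 35.6% to 32.5%. Cytosines in the 1000 bp upstream of a start site, the promoter, had 10.7% ± 0.543 without and 9.82% ± 0.190 with 5-azadC. Their difference was -0.858 points, and the groups overlapped because the second C29 library, at 9.90%, lay among those with 5-azadC (exact permutation p = 0.0571, against p = 0.0286 and an adjusted p = 0.0381 over the 4 classes for the other positions). Relative to the level without 5-azadC, the difference was -8.03% at promoters, -8.78% in exons, -11.3% in introns and -9.98% between genes. Soft-masked repeats differed by -5.31 points, from 59.3% to 54.0%, and other DNA by -3.22 points, from 31.8% to 28.6%.

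**Figure D1:**
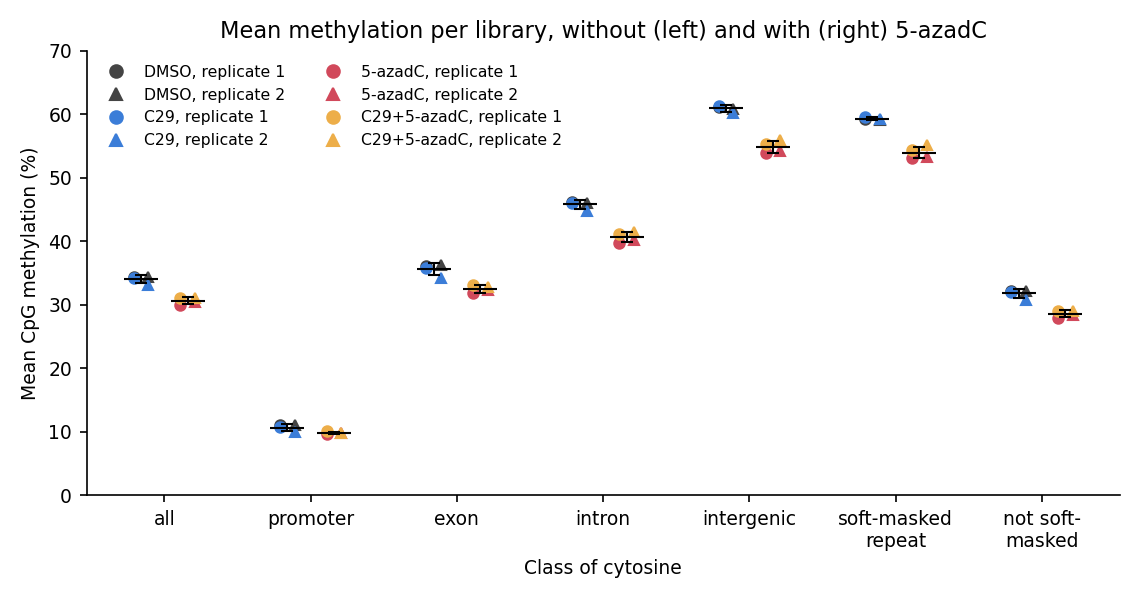
Mean CpG methylation (%, vertical axis) of each library in 7 classes of cytosine, with libraries without 5-azadC to the left and those with it to the right of each class. Points are libraries, bars are the mean and SD of 4 libraries, and the groups are apart in every class but the promoter, where the means are 10.7% and 9.82%.

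Along the distance to the nearest start site of a coding gene, all libraries showed the same trough. In the 500 bp upstream of the start the mean was 8.45% without and 7.77% with 5-azadC, a difference of -0.682 points with overlapping groups (exact permutation p = 0.0857). In the 500 bp downstream it was -0.615 points (exact permutation p = 0.114). The difference reached -4.29 points at 1000 to 2000 bp downstream, -6.51 points at 2000 to 5000 bp and -7.09 points at 10000 to 50000 bp, where the level fell from 66.5% to 59.4%. Upstream it was -5.15 points at 1000 to 2000 bp and -6.77 points at 10000 to 50000 bp. The groups did not overlap in any window farther than 1000 bp from a start site (exact permutation p = 0.0286, adjusted over 14 windows p = 0.0364).

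**Figure D2:**
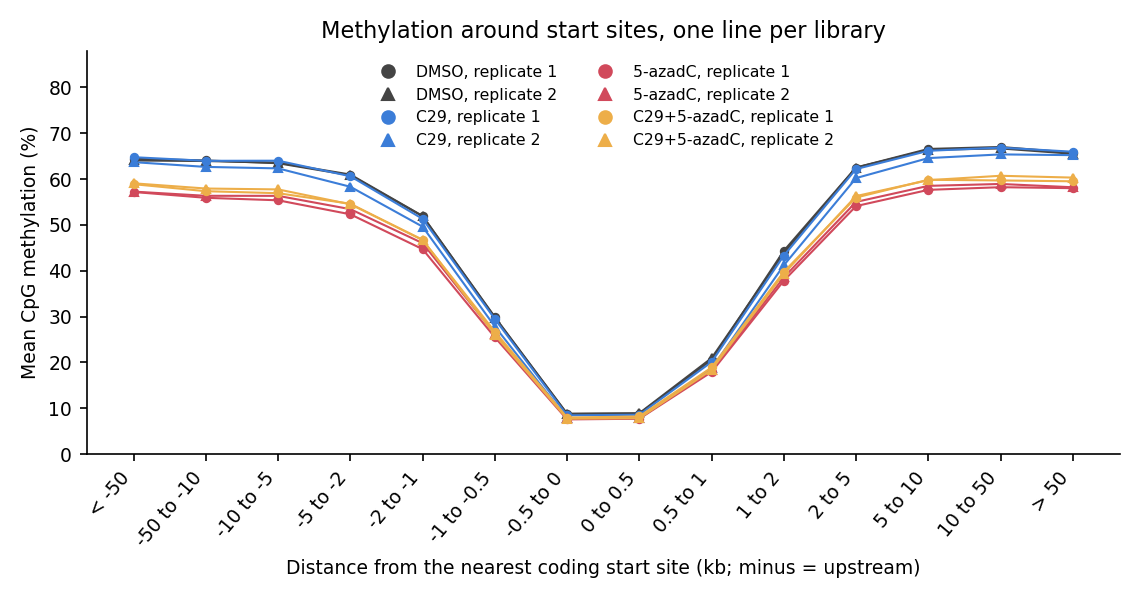
Mean CpG methylation (%, vertical axis) in 14 windows of distance from the nearest start site of a coding gene (kb, minus is upstream), with a line for each of the 8 libraries. The lines of libraries with 5-azadC run below the others away from the start site and meet them within 0.5 kb of it, where all libraries lie between 7.58% and 8.93%.

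The difference varied with level and CpG density and was spread over the genome. In points it was largest in tiles of 75 to 90% and smaller again in those of 90 to 100%. Level classes were set by the mean of all 8 libraries, so a tile with a large loss could not fall into the highest class. Tiles of a mean level of 75 to 90% over the 8 libraries differed by -9.26 points, from 88% to 78.7%, and tiles of 50 to 75% by -8.21 points. Tiles of 90 to 100% differed by -5.27 points, tiles of 25 to 50% by -5.43, tiles of 10 to 25% by -2.75, and tiles of 0 to 10% by -0.208, without overlap in any class (exact permutation p = 0.0286). Tiles with 1 to 9 CpGs in the genome sequence differed by -8.55 points and those with 10 to 19 by -7.61 points. In tiles with 60 or more CpGs the difference was -0.421 points with overlapping groups (exact permutation p = 0.229), being -0.925 points for 5-azadC against DMSO and 0.0839 points for C29+5-azadC against C29. On the 19 autosomes the difference ranged from -3.02 points on chromosome 11 to -3.85 points on chromosome 16, and no autosome had overlapping groups.

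In 3373 tiles all 4 libraries with 5-azadC lay below all 4 others, which is 6.46% of the 52186 tiles. In 176 tiles, 0.337%, all 4 lay above. These are called lower and higher tiles here, which names the separation of the libraries and no test. When the groups had to be apart by 10 points or more, 351 tiles (0.673%) lay below and 10 (0.0192%) above. The same counts were made for the other drug of the design, over the same tiles and libraries. Each side of that split holds 2 libraries with and 2 without 5-azadC. Differences with 5-azadC thus widen both sides and make separation by C29 less likely, so the counts are not on an equal footing. The 4 libraries with C29 lay below the 4 without it in 460 tiles (0.881%) and above in 512 (0.981%), and by 10 points or more in 25 (0.0479%) and 47 (0.0901%). Among single cytosines, 8370 of 555155 (1.51%) were below in all 4 libraries with 5-azadC and 1093 (0.197%) above. These counts are descriptions and carry no test.

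The 3373 lower tiles were highly methylated, with a median level of 80.6% against 50.2% over all tiles, and CpG-poor, with a median of 18 CpGs against 23. Their median difference was -16.3 points against -2.64 over all tiles, and 69.9% of all tiles had a lower mean with 5-azadC. Their median gap, the distance between the nearest libraries of both groups, was 3.38 points. In 650 of them (19.3%) it was under 1 point, and in 36 it was 20 points or more. The lower tile of smallest gap had 0.000114 points and the nearest tile outside had a gap of -0.00023 points. The 176 higher tiles had a median level of 10.9%, a median of 46 CpGs, a median difference of 7.51 points and a median gap of 0.754 points. With the tile level taken as the plain mean of its cytosines in place of pooled reads, 2366 of the 3373 (70.1%) and 116 of the 176 (65.9%) remained without overlap.

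Lower tiles took the largest share of tiles inside coding genes and the smallest at coding promoters. They made up 1839 of 19712 tiles in coding genes (9.33%), 827 of 12078 tiles without a gene (6.85%), 212 of 3412 tiles in other genes (6.21%) and 495 of 16984 tiles that overlap a coding promoter (2.91%). Higher tiles made up 91 of the promoter tiles (0.536%), 32 of those in coding genes (0.162%), 13 of those in other genes (0.381%) and 40 of those without a gene (0.331%). By level, lower tiles took 13.5% of tiles at 75 to 90% and 10.2% of those at 90 to 100%, against 0.92% of those at 0 to 10%. Of 14249 coding genes with a tile in the body, 1988 had 1 or more lower tiles, 303 had 2 or more and 72 had 3 or more, whereas 129 had a higher tile. Genes with the most lower tiles, picked after their values were seen, were Gm20388 with 35 of 398 tiles (8.79%) and 6 genes with 6 each. These were Prkce, a protein kinase C, with 6 of 19 tiles, Ank3, which encodes the cytoskeletal adaptor ankyrin-G, with 6 of 23, Nav2 with 6 of 28, Gse1 with 6 of 51, Zfhx3 with 6 of 53, and the growth factor receptor gene Fgfr2 with 6 of 89 (6.74%). The shares at Gm20388 and Fgfr2 were under the 9.33% of all tiles in coding genes. Longer genes offer more tiles, and these counts were not adjusted for length.

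**Figure D3:**
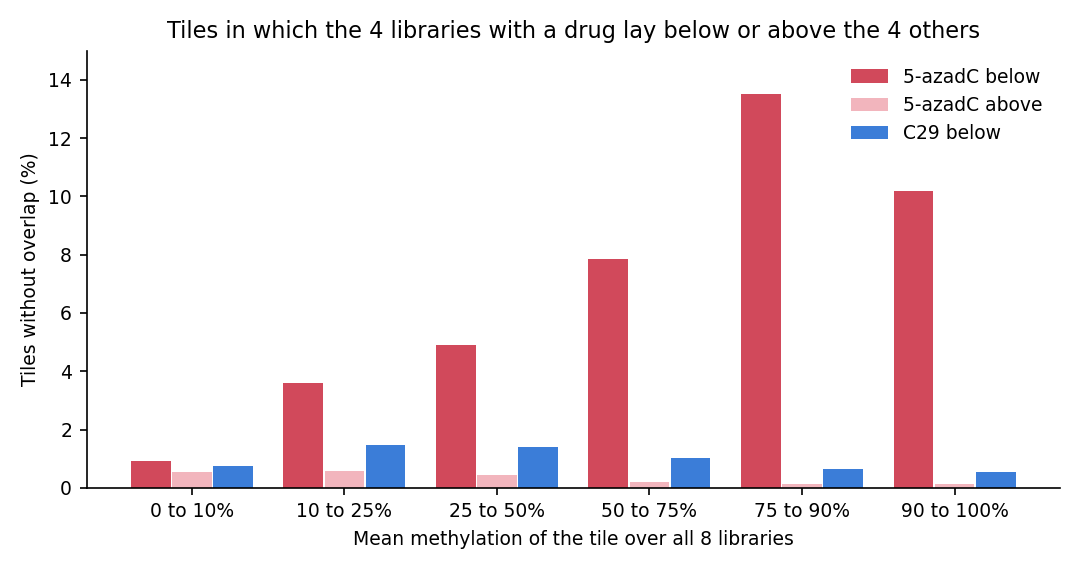
Share of tiles (%, vertical axis) in which all 4 libraries with a drug lay below or above all 4 others, by mean tile level over the 8 libraries (horizontal axis). Bars for 5-azadC below rise to 13.5% at 75 to 90%, while bars for C29 below range from 0.541% to 1.48%.

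Both C29 arms share no library, so they give separate readings of the same tiles. Both 5-azadC libraries lay below both DMSO libraries in 16024 tiles (30.7%), and both C29+5-azadC libraries lay below both C29 libraries in 12534 (24.0%). In 5035 tiles both held, which is 31.4% of the first set and 40.2% of the second. Without C29, 3170 tiles (6.07%) were higher, and with C29 4121 (7.90%). Both arms were higher in 324 tiles. These were 10.2% of those higher without C29, where 7.90% of all tiles were higher with it. They were 7.86% of those higher with C29, against 6.07% of all tiles. In 1183 tiles, 7.38% of those lower without C29, the arm with C29 was higher, against 7.90% of all tiles. In 658 tiles, 20.8% of those higher without C29, the arm with C29 was lower, against 24.0% of all tiles. The median tile difference was -2.78 points without C29 and -1.03 points with it. No tile passed the F test of the interaction between both drugs (q below 0.05 by Benjamini-Hochberg, smallest q = 0.936), and 2668 tiles (5.11%) had an unadjusted p below 0.05.

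**Figure D4:**
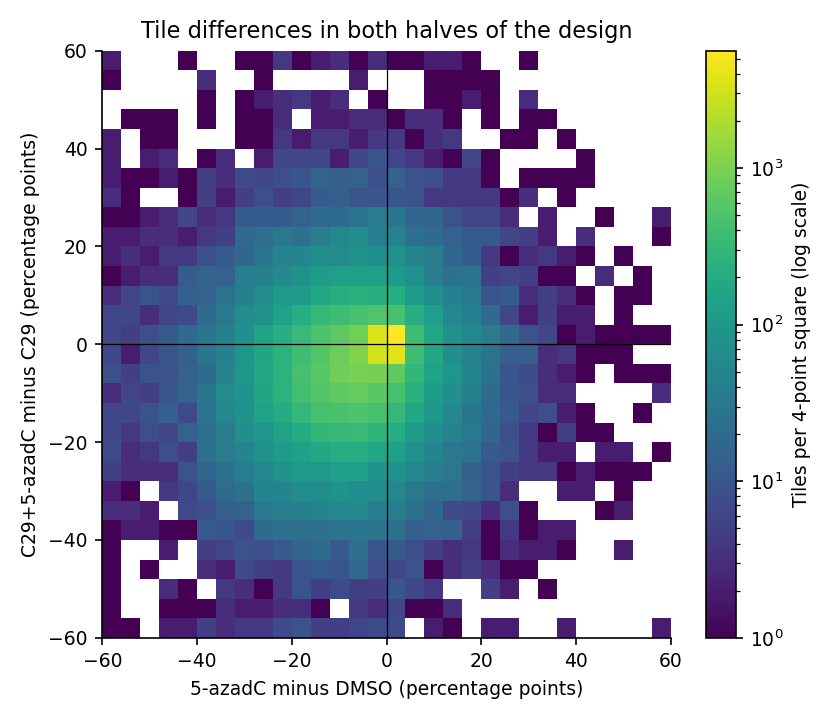
Difference of 5-azadC minus DMSO (percentage points, horizontal axis) against C29+5-azadC minus C29 (vertical axis) for tiles, with color giving the number of tiles per square of 4 by 4 points on a log scale and differences beyond 60 points drawn in the outermost squares. The dense center lies at 0 and the cloud is shifted into the lower left quadrant, which held 43.0% of the tiles.

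No single tile passed the main test. The overdispersion-corrected logistic F test of methylKit type, run over all 52186 tiles, called 0 tiles lower and 0 higher at q below 0.05, with a smallest q of 0.127. At an unadjusted p below 0.05 it gave 6610 tiles lower (12.7%) and 791 higher (1.52%). The edgeR quasi-likelihood test likewise called 0 and 0, with 3519 lower and 361 higher at an unadjusted p below 0.05. The limma test on logit levels called 134 lower (0.257%) and 8 higher (0.0153%) at q below 0.05, and in all 142 of them the groups were apart. In 124 of the 142, all 4 libraries of a side lay within 1 point of 0% or 100%, where the logit stretches small differences, and the differences ran from 1.13 to 50.7 points in size with a median of 16.8. The lowest library had 100 or more reads in 60 of them. Of these lower tiles 75 lay in coding genes, 30 at coding promoters, 25 without a gene and 4 in other genes. Libraries varied widely within a tile: reads of a tile had a median correlation of 0.0609 beyond counting error. Single cytosines varied more: among cytosines with a mean of 10 to 90% in tiles, the lowest library had a median of 4.76% and the highest a median of 100%, and 33.9% of all values were exactly 0 or 100%. The named tiles below are therefore described by their values, since the same values chose them, and they were ranked only among tiles with 100 or more reads in every library.

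Among such tiles that overlap a coding promoter, the widest separation was near Tram2, a gene for a translocation-associated endoplasmic reticulum protein. The tile, chr1:21080001-21081000, had 92.1% and 94.2% in DMSO, 86.3% and 96.4% in C29, 47.3% and 50.4% in 5-azadC, and 58.6% and 47.7% in C29+5-azadC, from 124 to 264 reads a library. Every library with 5-azadC was more than 27 points below every other, with means of 51.0% ± 5.23 and 92.2% ± 4.32 (SD, n = 4). Of its 3 measured cytosines, 1 lay in the promoter and 2 in the neighboring noncoding gene Gm28287. The sequence above shows the last 2 of the 3. The first CpG shown was at 100% in every library without 5-azadC. It was also at 100% in the second 5-azadC and the first C29+5-azadC library. When both strands of a CpG were summed, the difference was -32.0 points in place of -41.3.

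At Glul, which encodes glutamine synthetase, the 3 measured cytosines lay in an exon that is also upstream of an internal start site (chr1:153903001-153904000). Their level was 99.5%, 100%, 100% and 97.6% without 5-azadC and 83.0%, 79.0%, 78.0% and 76.0% with it. At Zfyve26, which encodes a zinc finger protein of endosomes and autophagy, all 4 libraries without 5-azadC were at 100% and those with it at 69.0%, 74.1%, 84.2% and 87.0%. Zfyve26 was the only named tile that limma called (q = 0.0140), a test that shares these values with the choice of the tile.

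The other promoter tiles of wide separation had means with and without 5-azadC of 31.5% and 59.95% at 1700028K03Rik, 56.2% and 86.3% at Nradd, 63.5% and 88.4% at Ptk7, 59.4% and 74.7% at Celf3, 59% and 86.3% at Ighmbp2, 71.8% and 88.6% at Dld and 16.5% and 42.8% at Lrp1. Ptk7 encodes a catalytically inactive receptor kinase of Wnt signaling, Celf3 an RNA-binding protein, Dld the E3 subunit of the mitochondrial dehydrogenase complexes and Lrp1 an endocytic receptor. The measured cytosines of Celf3 and Ptk7 were mostly exonic (5 of 5 and 4 of 6). At Ptk7, Celf3, Ighmbp2, Dld, Lrp1 and 1700028K03Rik none lay inside the 1000 bp promoter itself, which the tile only touches. All 4 measured cytosines of the Ighmbp2 tile lay in another coding gene, Mrpl21, and those of the Dld tile lay in no gene. The difference at 1700028K03Rik was -15.6 points at a minimum of 20 reads, in place of -28.4.

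Among tiles with 100 or more reads in every library in coding genes away from promoters, Zbtb7a had the widest gap, 28.2 points. Zbtb7a encodes a BTB zinc finger transcriptional repressor. Its tile, chr10:81144001-81145000, with 10 cytosines in exons, had 92.0% and 81.5% in DMSO, 90.7% and 90.8% in C29, 53.3% and 38.3% in 5-azadC, and 24.2% and 51.4% in C29+5-azadC. All libraries with 5-azadC were lower, and they spread more widely (41.8% ± 13.5) than the others (88.8% ± 4.85, SD, n = 4). In the sequence above, the leading CpG went from a mean of 99.0% to 33.8%, with no overlap, while the last 6 CpGs ranged from 0% to 100% among the libraries with 5-azadC. With both strands summed the difference was -28.7 points in place of -47.0.

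Maml3, a coactivator of Notch target genes, had 55.0%, 68.1%, 60.3% and 59.8% without and 12%, 27.2%, 27.6% and 26.6% with 5-azadC in tile chr3:52071001-52072000. All 3 of its CpGs, annotated as exonic, had lower means, at 28.1%, 64.5% and 89.7% without and 3.70%, 19.3% and 46.9% with 5-azadC. Tnrc18 went from 94.1% to 53.6%, and 4 of its 5 cytosines separated the groups singly. The heparan sulfate proteoglycan gene Gpc6 went from 98.6% to 62.9%, Lrmda from 71.9% to 33.9%, the stress-activated kinase gene Map3k5 from 94.4% to 64.6% and the neuronal calcium sensor gene Ncald from 87.0% to 52.9%. In these 4 genes every measured cytosine was intronic. The Lrmda difference was -13.7 points with both strands summed and -16.3 points without the first 5-azadC library, in place of -38.0.

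The widest gap of all named tiles, 38.8 points, lay outside genes at chr3:96332001-96333000. The tile had 83.4%, 74.5%, 79.7% and 81.9% without 5-azadC and 33.6%, 35.6%, 25.4% and 19.1% with it. Its 3 CpGs, shown above, went from 92.3% to 23.9%, from 68.8% to 23.6% and from 78.6% to 37.7%. Further intergenic tiles at chr3:50842001-50843000, chr1:88404001-88405000 and chr6:16743001-16744000 went from 98.3% to 67.5%, from 82.0% to 49.5% and from 91.7% to 59.7%.

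Higher methylation with 5-azadC was rare and less widely separated. The largest gap at a promoter tile with 100 or more reads in every library, 12.6 points, was at the shared start region of Peg3 and Usp29, imprinted genes whose promoter is methylated on the maternal allele. The 4 exonic cytosines in tile chr7:6730001-6731000 had 48.3% and 26% in DMSO, 47.8% and 29% in C29, 60.9% and 75.6% in 5-azadC, and 91.1% and 83.4% in C29+5-azadC. Every library with 5-azadC was higher, with 77.8% ± 12.9 against 37.8% ± 11.9 (SD, n = 4), and all 4 cytosines had higher means. Without the second C29+5-azadC library the difference was 25.7 points in place of 39.98.

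The other higher promoter tiles were low in level or variable. Adra2c, which encodes an adrenergic receptor, went from 10.9% to 26.7%, Galnt13, a mucin-type glycosyltransferase gene, from 47.5% to 64.3%, Taf1c, a subunit of the RNA polymerase I factor SL1, from 8.31% to 21.6% and Cartpt, a neuropeptide gene, from 9.07% to 24.0%. All 14 measured cytosines at Adra2c were exonic, and none lay inside the 1000 bp promoter that the tile touches. With plain cytosine means the groups overlapped at Taf1c and Cartpt, and at a minimum of 20 reads the Taf1c difference was 0 points. Inside genes, Lmx1b, a LIM homeobox transcription factor gene, had 28.4%, 17.6%, 30.7% and 21.6% without and 54.6%, 54.9%, 65.9% and 42.6% with 5-azadC in an intronic tile (chr2:33575001-33576000). Of its 7 cytosines, shown above, the first 5 in the sequence had higher means with 5-azadC and the last 2 lower means. Without the first C29+5-azadC library the Lmx1b difference was 15.3 points in place of 29.9.

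Bcl11b, a zinc finger transcription factor gene, went from 11.1% to 36.4%, Faim2, an inhibitor of Fas-mediated death, from 5.18% to 26.2%, Hoxd3 together with the overlapping gene Gm28230 from 20.3% to 41.4%, and Gm20388 from 56.3% to 78.9%. At Gm20388 the difference turned to -0.243 points at a minimum of 20 reads, and with plain cytosine means it was 4.46 points in place of 22.6 and the groups overlapped. Outside genes, tiles at chr1:87174001-87175000 and chr8:34134001-34135000 went from 35.0% to 61.3% and from 78.7% to 93.5%.

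**Figure D5:**
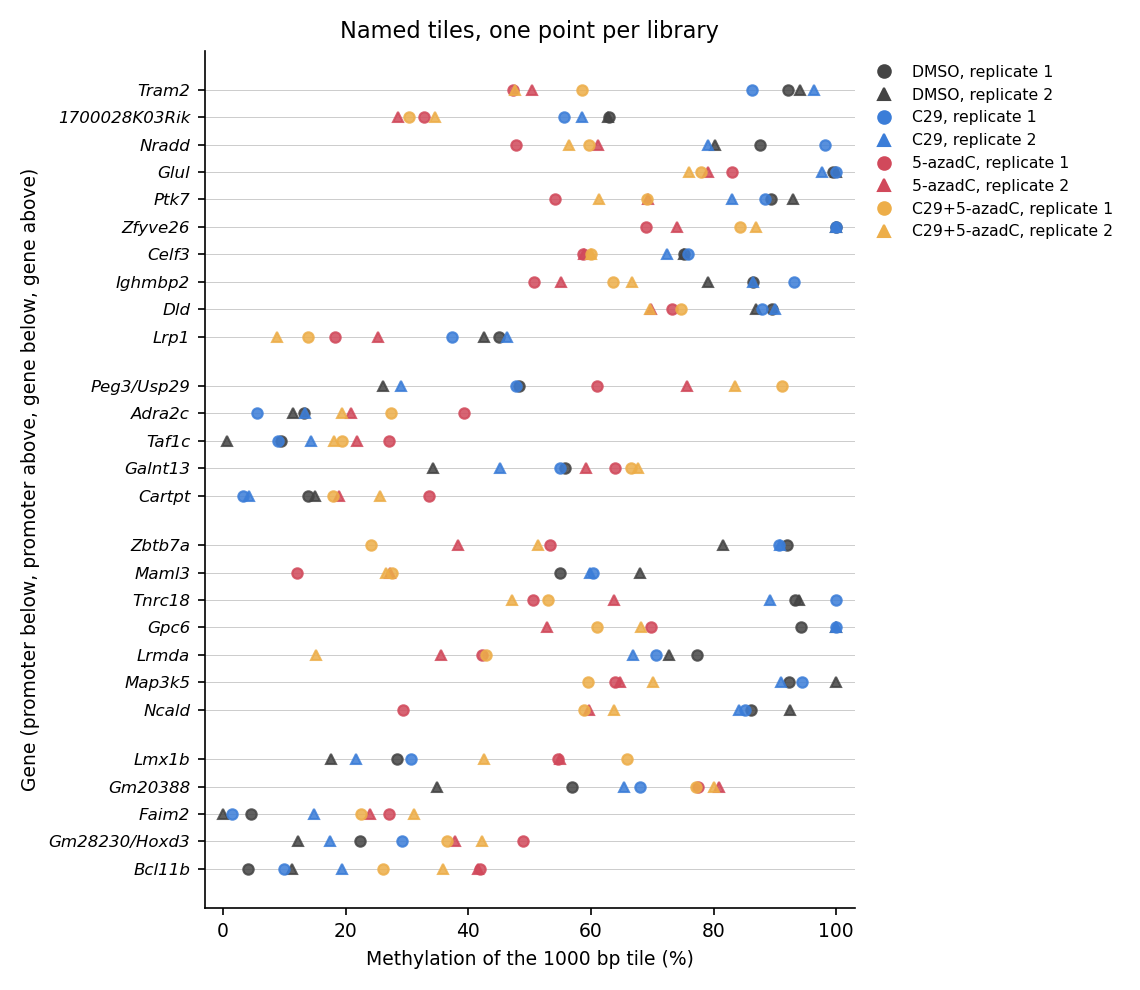
Methylation (%, horizontal axis) of each named tile at a gene, with a point for each of the 8 libraries and the genes in 4 blocks (promoter lower, promoter higher, gene lower, gene higher with 5-azadC). Red and yellow points, the libraries with 5-azadC, are apart from the others by 28.2 points at Zbtb7a and by 2.98 points at Cartpt.

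Promoter tiles of known methylation-dependent and drug-related genes were then counted. Of 12183 coding genes with a promoter tile, 502 (4.12%) had a lower one and 99 (0.813%) a higher one, and the median difference was -0.131 points. Of 30 germline genes that methylation keeps silent in somatic cells, 21 had a tile, 3 of them were lower (14.3%) and none higher, with a median difference of -3.09 points. The mean level of these 21 genes was 79.3%, 74.6%, 75.7% and 77.5% without and 71%, 72.8%, 72.9% and 73.0% with 5-azadC. Among all tiles, 13.5% of those at 75 to 90% and 7.85% of those at 50 to 75% were lower. The share of the list was thus near that of tiles of its level, and the 4.12% of all coding genes is no match for it. The lower ones were Tdrd1, a Tudor protein of the piRNA pathway (93.3% to 85.1%), Meioc, a regulator of meiotic entry (91.7% to 77.3%), and Sohlh2, a germ cell transcription factor (97.5% to 81.1%). In all 3 tiles the measured cytosines lay outside the 1000 bp promoter that the tile touches. At Meioc the neighboring tile, with 3 promoter cytosines, overlapped between groups.

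Of 26 imprinted genes with a tile, Igf2r and Impact were lower and Peg3, Usp29 and Grb10 higher, with a median difference of -2.38 points. Igf2r encodes the receptor that clears IGF2, and its tile upstream of an internal start site (chr17:12751001-12752000) had 48.7%, 61.5%, 58.3% and 66.2% without and 39.1%, 32.9%, 28.1% and 27.6% with 5-azadC. Its cytosines did not move alike: 1 of 6 had a higher mean with 5-azadC, and with plain cytosine means the groups overlapped. The tile at the 5′ end of Igf2r overlapped between groups, at 36.8% to 59.9% without and 21.4% to 63.7% with 5-azadC. Impact went from 98.9% to 73.0% in an exonic tile, while the tile at its 5′ start overlapped. Grb10 went from 74.1% to 86.4% on as few as 55 reads a library, with overlap in plain cytosine means and in both of its other tiles.

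Promoter tiles at genes of the methylation machinery were mostly not separated. Of 17 with a tile, 1 was lower (5.88%) and the median difference was -0.198 points. That gene was Dnmt1, in an exonic tile far downstream of its main start sites, with 96.8%, 96.7%, 98.6% and 96.9% without and 81.7%, 87.5%, 68.6% and 95.3% with 5-azadC, and overlap in plain cytosine means. At the Dnmt1 start itself all libraries had 0% to 1.93%. Away from promoters, and picked after its values were seen, a tile in Dnmt3b (chr2:153678001-153679000) was lower. It had 100% in every library without and 77.4% to 94.4% with 5-azadC. Of all tiles in coding genes 9.33% were lower, so this tile does not set Dnmt3b apart. Of 11 genes for uptake and metabolism of the analog none separated, including the activating kinase gene Dck, at 0% to 1.80% in all libraries. Of 12 methionine cycle genes 1 was lower (8.33%), Cbs, the entry enzyme of transsulfuration, from 97.9% to 86.0%.

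Among 19 genes of interferon response, RNA sensing and antigen presentation, 1 was lower (5.26%), Tapbp, which loads peptides onto MHC class I, from 82.4% to 59.5% in a tile upstream of an internal start site. With plain cytosine means the Tapbp groups overlapped, and the tile at its 5′ start lay between 0% and 11.4% in all libraries. None of the 7 transcription factor genes named by the study that had a tile was separated. Their median difference was -3.26 points, and 5 of them had lower means. Mean levels were 28.6% and 30.6% in DMSO, 30.4% and 32.6% in C29, 29.4% and 25.3% in 5-azadC, and 21.8% and 23.3% in C29+5-azadC. The paper drew such genes from promoter changes found only with the combination against vehicle, a contrast not made here. Of 21 tumor suppressor genes often methylated in breast cancer, Ccnd2, a D-type cyclin gene, was lower, from 3.72% to 0.636%. Esr1, the estrogen receptor gene, was higher at an internal start site, from 33.3% to 56.5% with a gap of 0.0216 points. Another Esr1 tile, away from promoters at chr10:4679001-4680000 and picked after its values were seen, was lower, as were 9.33% of all tiles in coding genes. It had 100% in every library without 5-azadC and 59.7% to 90.7% in those with it. Of 35 Hox genes, 2 were lower (5.71%), Hoxb7 from 42.2% to 27.4% and Hoxc13 from 15.3% to 9.06%, the latter with overlap in plain cytosine means. Counts in all of these lists rest on 5 genes or fewer, and no list was tested.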

How the data were processed

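RRBS of 8 tumor DNA pools was analysed. The authors aligned reads to mm10/GRCm38, and the submitters' processing notes name FastQC 0.11.8, Trim Galore 0.4.1, Bismark 0.20.0 and methylKit 1.7.0, with coverage limits, tile length and thresholds not given in the sources used here. The deposited files list for each cytosine a fraction of reads that are methylated and a count of reads, as made by the authors without normalization. Their product gave methylated reads, whole within 0.01 for 99.9997% to 99.9999% of cytosines, and rounded otherwise. Reads carry no molecular identifiers, so precision from depth covers counting error only. Positions were checked against GRCm38 and annotated with GENCODE M21.

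Cytosines needed 10 or more reads in all 8 libraries. Strands were kept apart. A tile level was methylated over all reads of its cytosines. Library means were compared by two-sided exact permutation tests, and tiles by a logistic model with overdispersion and F test rewritten in Python 3.11.15 (NumPy 2.4.6, SciPy 1.17.1, pandas 2.3.3, matplotlib 3.10.9), with edgeR 4.0.16 and limma 3.58.1 (R 4.3.3, 0.5 reads added before the logit) as alternatives. Adjusted p-values are Benjamini-Hochberg. A coding promoter was the 1000 bp upstream of any start site of a protein-coding gene, and a promoter tile overlaps it by 1 base or more. The tests were tried on simulated data in which 200 tiles were lowered by 35 points in the libraries with 5-azadC. At a correlation of 0.005 beyond counting error, the F test found 171 of them, edgeR 200 and limma 196. At 0.02 they found 2, 86 and 53, and at 0.06, near the median of 0.0609 in the data, each found 0. Counts of 0 by these tests thus do not show that single tiles did not differ.

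Named tiles had 100 or more reads in every library and were ranked by the gap between groups, 10 lower and 5 higher at coding promoters, 8 and 5 in coding genes, 4 and 2 without a gene, plus list genes without overlap. Of these, 1 tile in a coding gene is not reported here. The libraries, lists and rules were chosen with earlier results of these data known. Other ways of dividing the 8 libraries were not tried beside the C29 factor. Same-numbered libraries did not deviate together (correlations of -0.00662 to 0.0133), and nothing in the labels pairs them. Alternatives tried were a minimum of 5 or of 20 reads, leaving out the deepest cytosines, strands, tile length (500 bp), tile level, tests, covariates, a replicate block and each library left out. Expression, protein and tumor growth data were not analysed here.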

Additional observations from a re-analysis of the deposited data

Results flagged for a closer look

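A library stood apart from the other 3 of its side in 12 of 135 sets of 4 libraries tested (8.89%), by a gap above Dixon's 95% critical value. Chance alone flags about 1 in 20 such sets, and many of these sets share cytosines. The second C29 library was the lowest of the 4 without 5-azadC in the mean over all cytosines (33.1%, others 34.2% to 34.4%), over introns (44.8%, others 46.0% to 46.2%), over tiles of 25 to 50% (38.6%, others 41.2% to 41.4%) and over tiles of 75 to 90% (86.8%, others 88.2% to 88.5%). It was also the nearest of the 4 to those with 5-azadC in promoters. Over soft-masked repeats the first C29 library was the highest (59.6%, others 59.15% to 59.2%).

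Among tiles without 5-azadC, the second DMSO library was lowest at Zbtb7a (81.5%, others 90.7% to 92.0%) and at Tdrd1 (90.5%, others 94.1% to 94.4%), the first DMSO library was lowest at Gpc6 (94.2%, others at 100%), and the first C29 library was lowest at Grb10 (63.8%, others 77.1% to 78.3%) and highest at Dnmt1 (98.6%, others 96.7% to 96.9%). Among tiles with 5-azadC, the first 5-azadC library was lowest at Maml3 (12%, others 26.6% to 27.6%) and at Ncald (29.4%, others 58.8% to 63.8%). Removing the library did not turn the direction at any of these tiles. They were chosen because all libraries of both sides were apart, so the direction could hardly turn.

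The X chromosome was outside the comparisons above. Over its 12595 cytosines the mean was 52.5% ± 0.797 with and 55.2% ± 1.24 (SD, n = 4) without 5-azadC, a difference of -2.73 points (two-sided exact permutation test, p = 0.0286), with 51.5% to 53.3% in the libraries with 5-azadC and 53.4% to 56.1% in the others.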

How the results depend on the processing

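The mean difference kept its direction in every alternative run. It was no longer past the threshold as methylated over all reads (-2.22 points, exact permutation p = 0.2), and in the same measure without the 0.1% of cytosines of highest coverage (-2.80 points, exact permutation p = 0.114, chosen after seeing the data). Permuted within the C29 strata, -3.39 points had an exact p = 0.0556, the smallest that this design allows. With any 1 library left out it ranged from -3.84 to -3.14 points (exact permutation p = 0.0571, the smallest that 4 against 3 allow). Without overdispersion the logistic test called 28540 tiles lower and 7660 higher, and 27430 for the interaction. limma called 134 and 8, where the F test and edgeR called 0. Requiring a gap of 10 points left 0.673% of tiles lower and 0.0192% higher, and 0.0479% and 0.0901% for C29. With 7 libraries, 8.99% to 10.4% of tiles were lower and 0.608% to 0.852% higher, and 1.43% to 2.34% and 1.53% to 2.63% for C29. Fewer libraries overlap less often, and leaving out the second C29 library (10.2%) or the first (10.3%) or second (10.4%) C29+5-azadC library moved the share of lower tiles by over 1.5 times. The higher share and both C29 shares moved by over 1.5 times whichever library was left out. Of 669 values for 47 tiles under alternatives, 631 moved by less than the spread between libraries and 37 by more. Gm20388 reversed, to -0.243 points at a minimum of 20 reads. The cause was not tested. A replicate block, for numbers that do not pair the libraries, gave 0 lower and 0 higher tiles (6900 and 1337 at an unadjusted p below 0.05). A count of 0 does not show that single tiles did not differ.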
